A study of Mus musculus with 16 samples.

Results

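The 8 chemokine receptor genes Ccr1, Ccr3, Ccr4, Ccr6, Cxcr3, Cxcr4, Cxcr5 and Cxcr6 were chosen by name, as receptors that guide leukocytes into tissue, from the 54532 genes of the count table. All 8 were among the 15257 genes that passed the filter on low counts and were tested. RNA was sequenced from cells washed out of the airspaces of the lung (bronchoalveolar lavage) of male and female mice aged 8 to 10 weeks. The study's description gives the strain as C57BL/6, and the strain label of each sample reads C56BL/6J. The mice received saline, or bleomycin at 4 U/kg, by the oropharyngeal route, and the time given is 14 days. Each of the 4 groups (saline males, saline females, bleomycin males and bleomycin females) held 4 libraries, named here by their codes: C70 to C73, C74 to C77, C33 with C65 to C67, and C49, C50, C68 and C69. The labels name no transgene and no cell sort. Nothing in them says whether each library came from 1 animal or from pooled animals, so the p-values measure the spread between these libraries.

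Chemokines are small secreted proteins, and their receptors are proteins of the cell membrane that signal through Gi proteins to steer cell movement. Bleomycin injures the lung lining and is widely used in mice to provoke inflammation followed by scarring, during which monocytes, lymphocytes and other leukocytes enter airspaces that are otherwise held mostly by resident alveolar macrophages. Each leukocyte type carries its own set of these receptors: CXCR3 and CXCR6 are known on effector T and NK cells, CXCR5 on B cells and follicular helper T cells, CCR6 on B cells and T helper cells of the IL-17 kind, CCR4 on type 2 helper and regulatory T cells, CCR3 on eosinophils, CCR1 on monocytes and macrophages, and CXCR4 on nearly all leukocytes.

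Total counts ran from 16385784 to 21393539 in the saline libraries and from 18871879 to 24567609 in the bleomycin libraries, so the limit allowed by a count of 0 (3 counts in the summed libraries of a group) corresponded to 0.0355 to 0.0386 CPM. CPM stands for counts scaled to a common effective library size by the TMM method. Intervals and limits given for counts cover counting error only. The lavage identity of the saline libraries was visible in the 12 markers of resident alveolar macrophages, whose summed level was 18137 to 20004 CPM in saline males and 23887 to 27035 CPM in saline females. In the bleomycin libraries it was 11922 to 19992 CPM in males and 11831 to 24667 CPM in females. Most of the sum was Chil3, at means of 12886 and 18618 CPM in saline males and females and 12258 and 13666 CPM with bleomycin. In females alone 7 of the 12 markers fell and 0 rose, and in the average of the sexes 9 fell while 1, Fabp4, rose. Those with the smallest p-values were Fabp1, which fell by 5.19 on the log2 scale, Krt79, Ear1 and Cidec.

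Of the 8 receptor genes 5 lie on chromosome 9. Cxcr6 (GRCm38 chr9:123806475-123811760, plus strand), Ccr1 (chr9:123962124-123968692, minus strand) and Ccr3 (chr9:124021972-124031689, plus strand) stand within 225.2 kb of one another, Ccr4 is at chr9:114490316-114504916 (minus strand) and Cxcr5 at chr9:44511787-44561877 (minus strand). Ccr6 is at chr17:8236043-8257141 (plus strand), Cxcr3 at chrX:101731535-101734269 (minus strand) and Cxcr4 at chr1:128588199-128592293 (minus strand). Cxcr5 shares 110 exonic bases with Bcl9l on the opposite strand, and Cxcr6 lies within Fyco1 on the opposite strand with 0 exonic bases in common. Whether the counting used strand is not given in the sources used here. Bcl9l was at mean levels of 31.9, 32.3, 33 and 32.2 CPM in saline males, saline females, bleomycin males and bleomycin females. Among bleomycin females it was at 47.6, 34.7, 24.3 and 22.3 CPM in C49, C50, C68 and C69, where Cxcr5 was at 14.0, 9.75, 3.76 and 5.52 CPM. Among bleomycin males Bcl9l ran from 32.3 to 34.7 CPM and Cxcr5 from 5.41 to 16.6 CPM. The part of shared reads in these levels was not tested. Ccr1 and Ccr3 also resemble each other and the neighbouring Ccr1l1 in sequence, and how reads that match several of these genes were counted is not given.

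The bases just before the transcription start are shown for 4 receptors that mark the ends of the response: Cxcr3, which had the largest average fold change, Cxcr6, which had the highest mean FPKM in bleomycin males and females among the receptors that were scarce in saline, and Ccr1 and Cxcr4, which were abundant in saline and changed least. The sequences are from RefSeq (GRCm38.p6), read 5′ to 3′ on the gene's own strand. Capitals mark matches to 5 short motifs, searched on both strands in the 250 bases before the start. The letters were TGTGGT for the RUNX family of lymphocyte factors, AGGAAG for the ETS family of leukocyte factors, AGATAA for the family of Gata3, CAGGTG for the E-box of helix-loop-helix factors, and GGTGTG for the T-box family of Tbx21 and Eomes. A match on the opposite strand appears as its reverse complement. The Cxcr3 stretch, chrX:101734270-101734397 on the minus strand, is the portion of its window that lies before the first annotated exon. The others are chr9:123806227-123806474 on the plus strand for Cxcr6, chr9:123968693-123968942 on the minus strand for Ccr1 and chr1:128592300-128592549 on the minus strand for Cxcr4.
Cxcr3: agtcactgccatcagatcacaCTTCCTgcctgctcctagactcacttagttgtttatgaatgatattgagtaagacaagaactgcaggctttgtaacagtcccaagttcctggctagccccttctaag
Cxcr6: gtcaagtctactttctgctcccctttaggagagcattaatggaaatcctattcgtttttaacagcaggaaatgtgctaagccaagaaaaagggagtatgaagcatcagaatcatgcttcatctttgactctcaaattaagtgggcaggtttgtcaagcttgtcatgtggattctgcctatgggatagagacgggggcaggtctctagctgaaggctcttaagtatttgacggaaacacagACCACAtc
Ccr1: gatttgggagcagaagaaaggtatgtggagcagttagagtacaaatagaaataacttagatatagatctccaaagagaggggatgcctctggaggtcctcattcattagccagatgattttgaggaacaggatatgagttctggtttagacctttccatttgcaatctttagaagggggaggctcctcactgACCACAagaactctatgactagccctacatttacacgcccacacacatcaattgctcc
Cxcr4: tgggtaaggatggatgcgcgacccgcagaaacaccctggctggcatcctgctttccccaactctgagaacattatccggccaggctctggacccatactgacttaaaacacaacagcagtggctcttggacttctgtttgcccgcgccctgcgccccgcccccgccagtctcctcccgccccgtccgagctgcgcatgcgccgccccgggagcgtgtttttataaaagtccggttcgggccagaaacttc

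The RefSeq table held 7 of the 8 receptors, without Cxcr5. The RUNX letters were in the windows of 3 of the 7 receptors (Ccr1, Cxcr3 and Cxcr6) and in 14.0% of all 32851 promoters. The ETS letters were in 3 of 7 (Ccr4, Ccr6 and Cxcr3) against 29.5% of all promoters, the E-box letters in 2 of 7 (Ccr4 and Cxcr3) against 17.2%, the letters of the Gata3 family in 1 of 7 (Ccr3) against 9.99%, and the T-box letters in 0 of 7 against 16.3%. Ccr6 had 2 windows, of which only the first was counted here, while the shares over all promoters count every window. Its second window held the letters of the Gata3 family. The RUNX and E-box matches of Cxcr3, and 1 of its 2 ETS matches, lie beyond the printed stretch. The Cxcr4 window held none of the 5 motifs, which says only that these letters are not in this window.

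The 8 receptors fell into a pair that was abundant in every library and 6 that were scarce in saline. Levels of different genes were compared as FPKM, which divides by gene length. In saline males the mean FPKM was 67.2 ± 14.7 for Cxcr4 and 41.5 ± 5.38 for Ccr1 (SD, n = 4), with overlapping libraries, while the next receptor, Cxcr6, was at 0.458 ± 0.251. In saline females Cxcr4 was at 63.0 ± 15.3 FPKM, Ccr1 at 48.1 ± 3.0 and Cxcr6 at 0.335 ± 0.168. Ccr1 and Cxcr4 were thus not particular to cells recruited after injury, and only the other 6 were scarce in lavage cells of saline mice.

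In bleomycin males the order by mean FPKM was Cxcr4 (95.4 ± 15.7), Ccr1 (65.4 ± 10.4), Cxcr6 (6.55 ± 0.868), Cxcr3 (5.93 ± 1.58), Cxcr5 (3.40 ± 1.36), Ccr6 (2.29 ± 0.319), Ccr4 (1.09 ± 0.213) and Ccr3 (0.224 ± 0.0422). The neighbours Cxcr6 and Cxcr3, Cxcr3 and Cxcr5, and Cxcr5 and Ccr6 had overlapping libraries, and the other neighbours did not. In bleomycin females the order was the same, with means of 88.8 ± 8.65, 69.6 ± 18.3, 6.03 ± 3.81, 5.55 ± 1.80, 2.45 ± 1.38, 2.39 ± 1.05, 1.23 ± 0.538 and 0.617 ± 0.494 FPKM, and every neighbouring pair overlapped except Ccr1 and Cxcr6. The receptor RNA of the lavage cells was thus still mostly Cxcr4 and Ccr1 after bleomycin, among these 8.

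**Figure D1:**
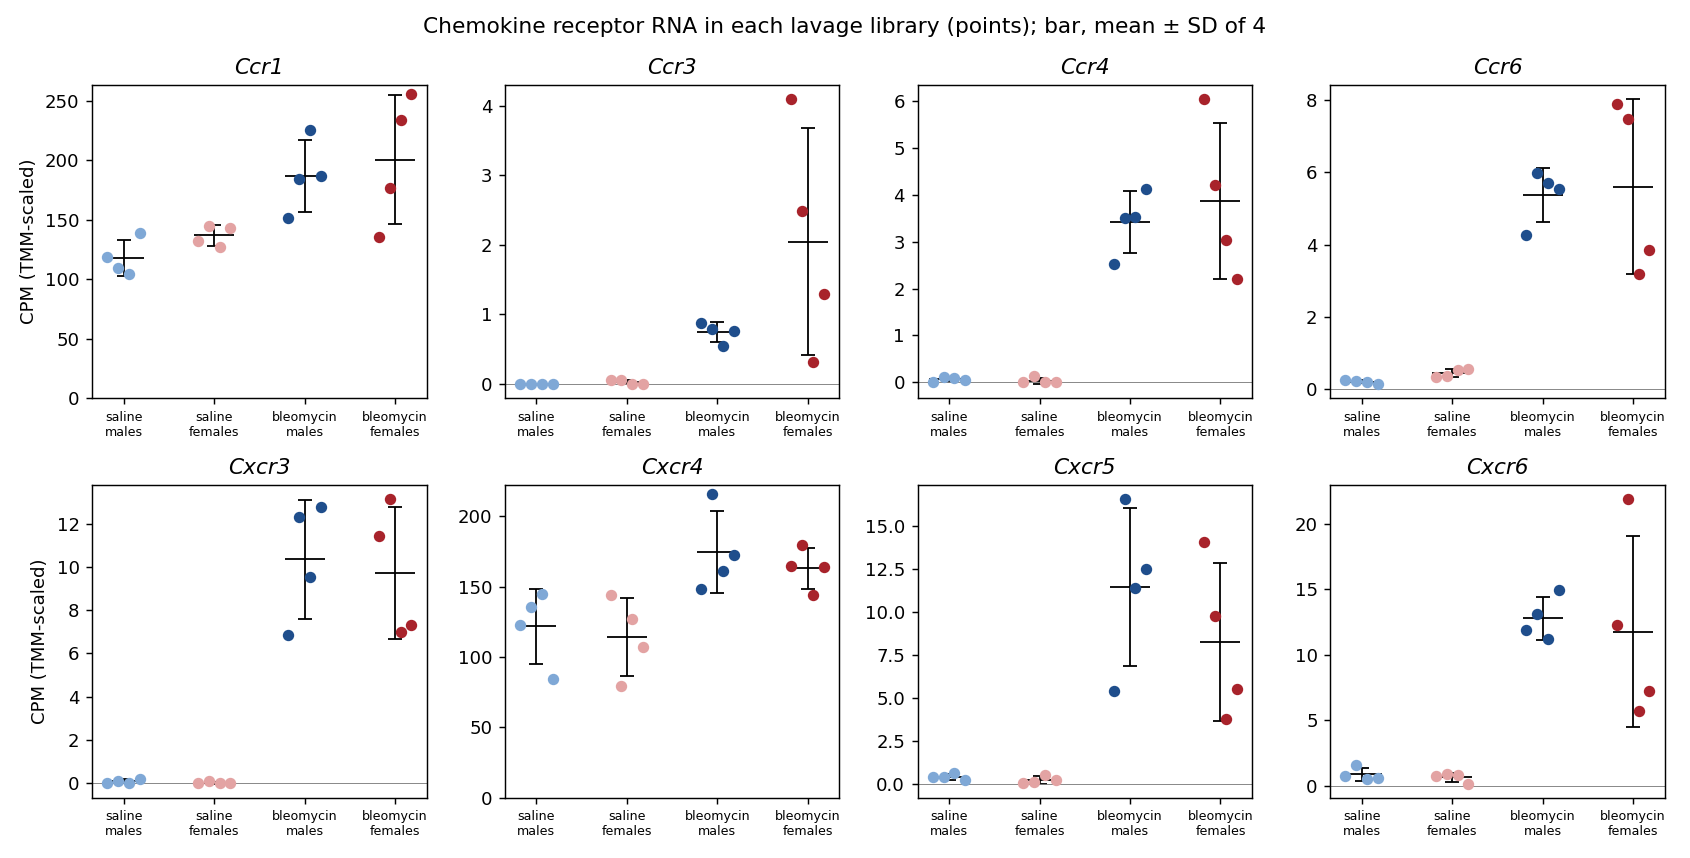
Each panel shows 1 receptor in CPM (linear axis from 0) in the 4 groups; points are libraries, and the bar is the mean with its SD (n = 4). Cxcr3, Cxcr5, Cxcr6, Ccr3, Ccr4 and Ccr6 sit at or near 0 in saline and above every saline library in all 8 bleomycin libraries, while Ccr1 and Cxcr4 start above 79 CPM.

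Every receptor was higher with bleomycin in both sexes. By edgeR's quasi-likelihood test with Benjamini-Hochberg adjustment over all genes tested (called at an adjusted p below 0.05), 8 of 8 were called higher in males, where 31.5% of all tested genes were, 8 of 8 in females, where 26.7% were, and 8 of 8 in the average of the sexes, where 34.7% were called higher and 28.8% lower. For 6 of the 8 all bleomycin libraries lay above all saline libraries, which held for 19.2% of all tested genes. The median log2 fold change of the 8 was 4.54 in the average, against 0.0116 over all tested genes. These counts and medians are a description and carry no support of their own, since Ccr3, Ccr4 and Cxcr3 reached the count minimum of 10 in 0 of the 8 saline libraries (Ccr6 and Cxcr5 in 2, Cxcr6 in 7) and entered the test through their bleomycin libraries. In lavage RNA more cells of a type and more RNA per cell cannot be told apart.

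**Figure D2:**
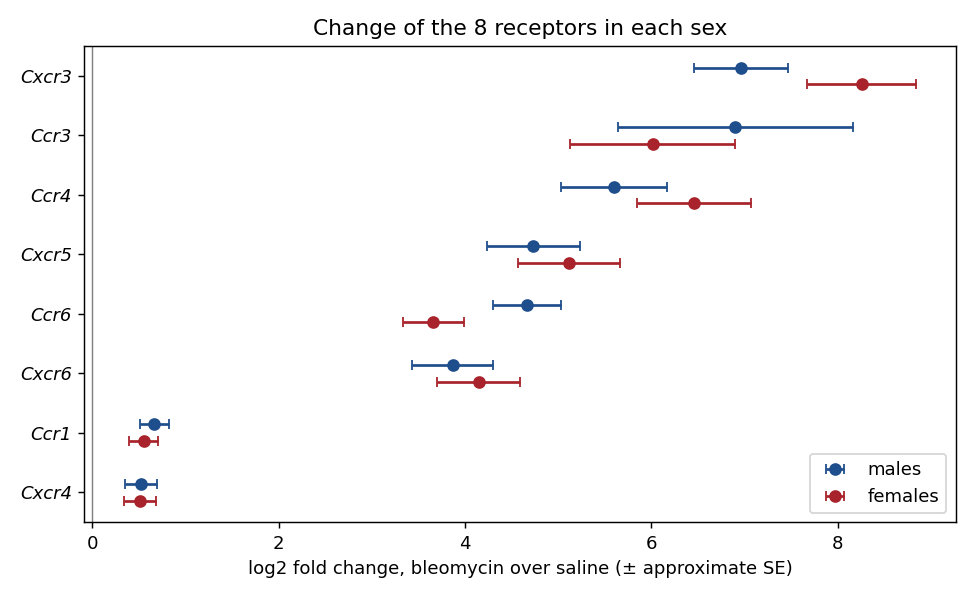
The log2 fold change of each receptor (bleomycin over saline) in males and females, with its approximate standard error; genes are ordered by the average of the sexes. Values run from 0.51 for Cxcr4 in females to 8.26 for Cxcr3 in females, and all lie to the right of 0.

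Cxcr3, the receptor of the interferon-induced chemokines CXCL9 and CXCL10, changed most. In saline males it was at 0, 0.114, 0 and 0.194 CPM in C70 to C73, and in saline females at 0, 0.0869, 0 and 0 CPM in C74 to C77, which is 6 and 2 counts in all. In bleomycin males it was at 6.85, 12.3, 9.52 and 12.8 CPM in C33, C65, C66 and C67, and in bleomycin females at 11.4, 13.2, 6.99 and 7.30 CPM in C49, C50, C68 and C69. All bleomycin libraries stood far above all saline libraries. The log2 fold change was 6.96 in males (standard error 0.50, adjusted p = 2.22e-09) and 8.26 in females (0.58, adjusted p = 1.78e-09) by edgeR's quasi-likelihood test; standard errors are approximate, being the fold change divided by the square root of F. As a ratio of summed CPM-scaled counts the rise was 134-fold in males (95% counting interval 61.2 to 365) and, against 2 counts, 390.0-fold in females (108 to 3226). The fitted values depend on the few saline counts: without C73 the male log2 fold change was 7.97, and without C75, which held both counts of the saline females, the female one was 10.59.

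Cxcr6, the receptor of the membrane-bound chemokine CXCL16, is known for holding memory T cells and NKT cells in tissue. It was at 0.775, 1.60, 0.539 and 0.629 CPM in saline males and at 0.721, 0.869, 0.840 and 0.170 CPM in saline females. In bleomycin males it reached 11.9, 13.1, 11.2 and 14.9 CPM, and in bleomycin females 12.3, 21.9, 5.69 and 7.24 CPM. The groups did not overlap, and the females spread more widely than the males, from 5.69 CPM in C68 to 21.9 CPM in C50. Cxcr6 rose by a log2 fold change of 3.87 in males (standard error 0.43, adjusted p = 6.05e-07) and 4.15 in females (0.45, adjusted p = 4.24e-07; edgeR). Without C33, C49 and C50 the female value was 3.20. Fyco1, the gene around Cxcr6, went the other way, from means of 82.5 and 76.6 CPM in saline males and females to 42.7 and 46.3 CPM with bleomycin.

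Ccr4 binds CCL17 and CCL22. The saline libraries held 0, 2, 2 and 1 counts in males and 0, 3, 0 and 0 in females. The bleomycin males were at 2.53, 3.51, 3.52 and 4.11 CPM and the bleomycin females at 6.04, 4.20, 3.03 and 2.21 CPM. Every bleomycin library was above every saline library, at 36 counts or more. Ccr4 rose by a log2 fold change of 5.60 in males (standard error 0.57, adjusted p = 1.98e-07) and 6.45 in females (0.61, adjusted p = 8.42e-08; edgeR). The ratio of summed counts was 53.1 in males (95% counting interval 22.5 to 165) and, against 3 counts, 103 in females (35.0 to 503). Without C75, which held all 3 saline female counts, the fitted female log2 fold change was 9.27, and without C33, C49 and C50 it was 5.82.

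Most tested markers of T cells and of NK and cytotoxic cells were higher with bleomycin, as were Cxcr3, Cxcr6 and Ccr4. The part of these cells in the rise of Cxcr3, Cxcr6 and Ccr4 was not tested. Of 20 T cell markers 19 rose and 1 fell in the average, and their summed level went from 267 to 278 CPM in saline males and 242 to 273 CPM in saline females to 480 to 966 CPM and 420 to 833 CPM. Most of the saline sum was Cd2, an adhesion molecule of T cells, which fell from 265 and 248 CPM to 117 and 122 CPM. Icos, Thy1, Cd8b1 and Cd8a had the smallest p-values of the list, with log2 fold changes of 6.56, 6.64, 8.79 and 8.28. Of 10 NK and cytotoxic markers 8 were tested and all 8 rose, with summed levels of 0.930 to 3.09 CPM in saline males, 1.48 to 2.21 in saline females, 38.6 to 78.5 in bleomycin males and 29.0 to 62.0 in bleomycin females. Klrk1, Nkg7, Klrd1 and Klrb1c had the smallest p-values there, and Ncr1 and Klra8 were at 0 in all saline libraries.

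Cxcr5 binds CXCL13, the chemokine that organises B cell follicles. It was at 0.413, 0.400, 0.637 and 0.242 CPM in saline males and at 0.0555, 0.130, 0.525 and 0.227 CPM in saline females. The bleomycin males were at 5.41, 16.6, 11.4 and 12.5 CPM and the bleomycin females at 14.0, 9.75, 3.76 and 5.52 CPM. The lowest bleomycin library, C68, was still above the highest saline library, but the bleomycin libraries differed among themselves by a wide margin. The log2 fold change was 4.73 in males (standard error 0.50, adjusted p = 2.94e-07) and 5.12 in females (0.55, adjusted p = 3.76e-07; edgeR). In females it was 5.86 without C76 and 4.21 without C33, C49 and C50.

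Ccr6, the receptor of CCL20, was at 0.258, 0.229, 0.196 and 0.145 CPM in saline males and at 0.333, 0.348, 0.525 and 0.567 CPM in saline females. It was at 4.27, 5.97, 5.70 and 5.55 CPM in the males given bleomycin and at 7.89, 7.48, 3.18 and 3.87 CPM in the females. All saline libraries were below all bleomycin libraries. Ccr6 rose by a log2 fold change of 4.66 in males (standard error 0.36, adjusted p = 6.11e-09) and 3.66 in females (0.33, adjusted p = 3.91e-08; edgeR). Without C33, C49 and C50 the rise in females was 2.92 on the log2 scale.

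B cell markers were higher with bleomycin, as were Cxcr5 and Ccr6. The part of B cells in the rise of Cxcr5 and Ccr6 was not tested. All 12 B cell markers rose in the average, with summed levels of 146 to 166 CPM in saline males, 137 to 158 in saline females, 299 to 622 in bleomycin males and 249 to 537 in bleomycin females. The saline sum was nearly all Cd22, an inhibitory receptor, at 154 and 145 CPM, which rose only by 0.15 on the log2 scale. Ighm, the heavy chain of IgM, rose by 7.53, Fcrla by 4.98, the kinase Blk by 8.58 and the B cell receptor subunit Cd79a by 7.31 on the log2 scale. Cd79b, Fcmr and Ighd were at 0 in all 4 saline male libraries.

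Ccr3, best known as the eotaxin receptor of eosinophils, was the scarcest receptor. It had 0 counts in each saline male library and 1, 1, 0 and 0 counts in the saline females. The bleomycin males held 20, 15, 11 and 17 counts (0.872, 0.786, 0.546 and 0.760 CPM) and the bleomycin females 84, 59, 6 and 21 counts (4.09, 2.48, 0.313 and 1.29 CPM). The bleomycin females thus spanned the values of the males, with C68 below and C49 far above them. Ccr3 was called higher in males (log2 fold change 6.90, standard error 1.26, adjusted p = 0.000275) and in females (6.02, 0.89, adjusted p = 4.41e-05; edgeR), but these fitted values depend on how counts of 0 are handled, and limma voom gave 4.88 and 5.09. In males 63 counts with bleomycin stood against 0 with saline, which is at least 15.3-fold higher by the lower limit of the exact 95% counting interval, and 19.4-fold when 63 is set against the limit of 3 counts over the group. In females the ratio to 2 counts was 82.8 (95% counting interval 22.6 to 689). Without C33, C49 and C50 the female log2 fold change was 4.56.

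Eosinophil markers were sparse in all groups, and their part in the Ccr3 result was not tested. Of 6 markers 3 were tested and all 3 rose: Il5ra, from 0 to means of 0.493 CPM in bleomycin males and 0.879 in bleomycin females, Ear6 and Alox15, from 0.126 and 0.136 CPM to 2.50 and 5.44. The summed level was 2.66 to 5.26 CPM in saline males, 4.20 to 5.38 in saline females, 14.6 to 18 in bleomycin males and 21.2 to 26.3 in bleomycin females, most of it Ear6. The granule protein gene Epx stayed at or below a group mean of 0.106 CPM, Prg3 was at 0 everywhere, and Prg2 went from 0 to 0.659 and 0.794 CPM. Of 8 mast cell and basophil markers, Kit and Hdc rose, the other 6 were not tested, and Fcer1a was at 0 in all libraries. The summed level of those 8 was 1.19 to 2.69 CPM over the saline libraries and 14.0 to 28.7 over the bleomycin libraries.

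Ccr1 binds several inflammatory CC chemokines, among them CCL3, CCL5 and CCL9. It was at 118, 109, 105 and 139 CPM in saline males and at 132, 145, 127 and 144 CPM in saline females. In bleomycin males it was at 152, 184, 225 and 187 CPM, and in bleomycin females at 136, 177, 234 and 256 CPM. The males did not overlap, whereas among females C49 with bleomycin lay within the saline range. Ccr1 rose by a log2 fold change of 0.66 in males (standard error 0.16, adjusted p = 0.00166) and 0.55 in females (0.16, adjusted p = 0.00791; edgeR), or 1.59-fold and 1.47-fold.

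Cxcr4, the receptor of CXCL12, retains leukocytes in bone marrow and tissue. It was at 123, 136, 145 and 84.0 CPM in saline males and at 144, 79.6, 127 and 107 CPM in saline females. With bleomycin it was at 148, 216, 161 and 172 CPM in males and at 165, 179, 144 and 164 CPM in females. The highest saline male library lay just under the lowest bleomycin one, and the female groups met at C74 and C68. The log2 fold change was 0.52 in males (standard error 0.17, adjusted p = 0.016) and 0.51 in females (0.17, adjusted p = 0.0214; edgeR). The call within 1 sex was not stable: in males it was lost without C73 (0.37, adjusted p = 0.0613) or C65 (0.39, adjusted p = 0.0689), in females without C75 (0.37, adjusted p = 0.0822), C77 (0.48, adjusted p = 0.056) or C50 (0.43, adjusted p = 0.0737), and in both with library totals alone as the scaling (0.28 and 0.32, adjusted p = 0.169 and 0.132; edgeR). In the average of the sexes Cxcr4 was called under all 23 alternatives, at 0.30 to 0.58.

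Most tested markers of monocyte-derived macrophages, neutrophils and dendritic cells were higher with bleomycin, as were Ccr1 and Cxcr4. The part of these cells in the rise of Ccr1 and Cxcr4 was not tested. Of 12 markers of monocyte-derived macrophages 11 rose, and the summed level went from 168 to 211 CPM in saline males and 178 to 207 in saline females to 5956 to 11041 and 4363 to 8063 CPM. Among them the complement genes C1qb and C1qa and the lipid carrier Apoe had log2 fold changes of 8.09, 7.49 and 6.12. Of 12 neutrophil markers 7 were tested, 5 rose (among them Cxcr2, S100a8, S100a9 and Retnlg) and 1, Csf3r, fell by 0.50 on the log2 scale; their sum was 84.1 to 127 CPM over the saline and 189 to 234 CPM over the bleomycin libraries. The neutrophil genes Ly6g, Camp, Ngp, Elane and Mpo were not tested and stayed at or below a group mean of 0.0803 CPM. All 12 dendritic cell markers rose (Itgae, Flt3, Fscn1 and Xcr1 had the smallest p-values), as did 10 of the 11 tested epithelial, stromal and red cell markers (Krt8, Krt18 and Cldn18 among them) while Epcam fell.

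The sexes were compared because the study is about sex differences in the response to bleomycin. In saline 0 of 8 receptors were called between males and females (0.269% of all tested genes were), and in bleomycin 0 of 8 were called (0.059% of all tested genes). The interaction, which asks whether the bleomycin effect differed between the sexes, was called for 0 of 8 (0.00655% of all tested genes). DESeq2 and limma voom also called 0 in each of these 3 comparisons. At an unadjusted p below 0.05 there was 1 receptor in saline, 1 in bleomycin and 0 in the interaction, by edgeR. The share of all tested genes at that unadjusted threshold is not given here, so these counts are a description only.

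The receptor in saline was Ccr6, with a male minus female log2 difference of -1.07 (95% interval -1.95 to -0.20, adjusted p = 0.461, edgeR). All 4 saline male libraries were below all 4 female ones, at 16 against 34 counts in all. How common such a separation was among all tested genes is not given. The receptor in bleomycin was Ccr3, with a log2 difference of -1.46 (-2.57 to -0.36, adjusted p = 0.995, edgeR), where the libraries overlapped. This Ccr3 difference ranged from -1.82 (without C68) to -0.14 (without C33, C49 and C50), and C49 and C50 held 84 and 59 of the 170 female counts. For the other receptors in bleomycin the intervals were narrow for Ccr1 (-0.41 to 0.21) and Cxcr4 (-0.24 to 0.43) and wider for Ccr4 (-0.89 to 0.52), Ccr6 (-0.58 to 0.44), Cxcr3 (-0.49 to 0.66), Cxcr5 (-0.27 to 1.19) and Cxcr6 (-0.57 to 0.78). Without C33, C49 and C50, whose codes stand apart from the others, Cxcr5 was called higher in bleomycin males, by 1.57 on the log2 scale (adjusted p = 0.00669, edgeR). In that fit 4.27% of all tested genes were called (670 of 15707). Of the libraries it leaves, the females C68 and C69 had T cell marker levels (mean log2(CPM + 1) of the list) of 3.96 and 4.10 and the males C65 to C67 levels of 5.02 to 5.43, so sex and lymphocyte marker level cannot be told apart there. The labels do not say what the codes mean. The authors' deposited table for bleomycin males against females lists Ccr3 (-1.47, adjusted p = 1), and their table for the saline groups lists Ccr1 (-0.23, adjusted p = 0.0731). The authors' deposited table for bleomycin against saline with the sexes together gives Cxcr3 a log2 fold change of 7.6 and Cxcr4 one of 0.50.

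The chemokines that bind these receptors were mostly higher too. Of 15 ligands 10 were tested, and all 10 were called higher in males, in females and in the average. The other 5 (Ccl11, Ccl24, Ccl20, Cxcl12 and Cxcl13) did not pass the filter. Between the sexes 0 of 10 were called in saline or bleomycin.

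For Cxcr6, the ligand Cxcl16 rose from 7.25 ± 2.75 CPM in saline males and 5.73 ± 1.24 in saline females to 127 ± 26.4 and 116 ± 17.1 CPM (SD, n = 4; log2 fold change 4.23, adjusted p = 8.99e-14, edgeR). For Ccr1 and Ccr3, Ccl5 rose from 1.01 ± 0.625 and 0.727 ± 0.157 CPM to 61.7 ± 22.5 and 42.4 ± 11.1 CPM, and Ccl7 from 0.201 ± 0.198 and 0.0929 ± 0.0557 to 3.05 ± 1.36 and 1.80 ± 0.712 CPM. The other Ccr1 ligands ranged from a small to a large change: Ccl6, at 2615 and 3062 CPM already in saline, rose by a log2 fold change of 0.62, Ccl3 by 1.99 and Ccl9 by 3.52. For Ccr4, Ccl17 rose by 2.74 and Ccl22 by 1.98 on the log2 scale, to 111 ± 26.7 and 97.2 ± 12.0 CPM for Ccl22. For Cxcr3, Cxcl9 rose by 1.61 and Cxcl10 by 2.37, both remaining below 7 CPM in the group means.

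The 5 untested ligands were at or near 0 in the lavage cells at this depth. Cxcl12, the ligand of Cxcr4, had 0 counts in saline and 5 and 2 counts in bleomycin males and females. Ccl20, the ligand of Ccr6, had 0 counts in saline and 4 and 2 counts with bleomycin. Cxcl13, the ligand of Cxcr5, had 1 and 2 counts in saline and 6 and 14 with bleomycin. Of the eotaxins that bind Ccr3, Ccl11 had 0 counts in all 16 libraries, while Ccl24 went from 0 and 1 counts to 51 and 19. CXCL12 and CCL20 are known mainly as products of stromal and epithelial cells.

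**Figure D3:**
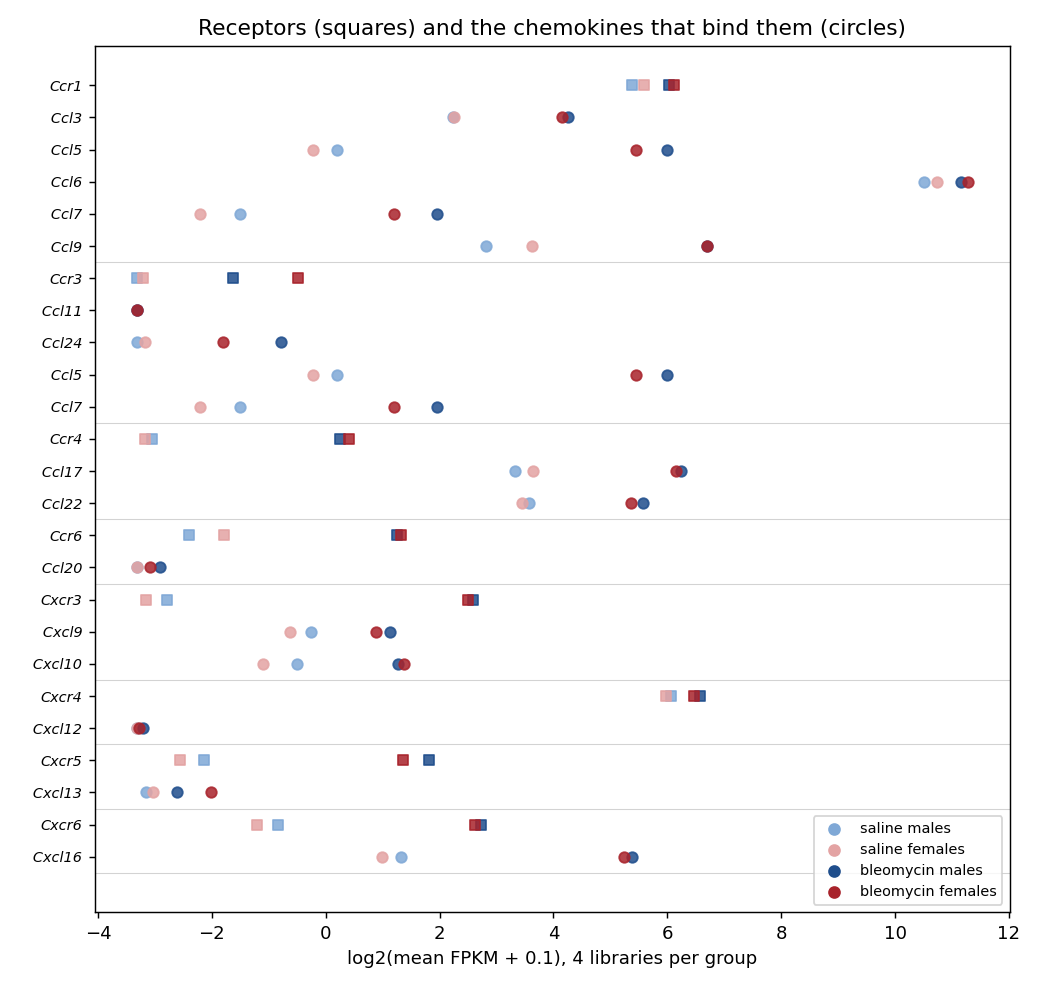
Mean level of each receptor (squares) and of the chemokines that bind it (circles) as log2(FPKM + 0.1) over the 4 libraries of each group. Cxcl16, Ccl5 and Ccl9 shift far to the right with bleomycin, while Ccl11, Cxcl12 and Ccl20 stay at the left edge in all groups.

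Most of the other chemokine receptors were higher as well. Of 15, 11 were tested and 10 rose in the average, with a median log2 fold change of 3.32. Ccr2, the receptor for monocyte entry, rose by 3.32, Cxcr2, the neutrophil receptor, by 2.93 and Cx3cr1, the fractalkine receptor, by 5.26. Ccr10, the skin homing receptor, was at 0.684 ± 0.320 and 0.726 ± 0.337 CPM in saline males and females and at 0.511 ± 0.214 and 0.569 ± 0.408 with bleomycin (log2 difference -0.41, adjusted p = 0.331, edgeR). The 4 atypical receptors Ackr1 to Ackr4 were not tested.

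The signalling genes shared by chemokine receptors moved in both directions. Of 23 tested, 11 rose, 6 fell and 6 were not called, with a median log2 fold change of 0.096. Rgs10, which shortens G protein signals, rose by 2.27, the arrestin gene Arrb1 by 2.19, the GTPase Rac2 of leukocyte migration by 1.34 and the G protein subunit Gng2 by 0.64. The G protein genes Gnai2 and Gnai3 had log2 differences of 0.09 and -0.03 (adjusted p = 0.239 and 0.631, edgeR).

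Most transcription factors known from lymphocyte subsets that carry these receptors were also higher with bleomycin. Their relation to the receptors was not tested. Of 11 factors, 10 rose in the average, where 34.7% of all tested genes were called higher, and 1, Rora, fell (from 57.9 and 44.3 CPM to 31.4 and 34.6). Id2 was already at 72.6 and 69.3 CPM in saline males and females. Runx3, a factor of cytotoxic T cells, rose by a log2 fold change of 4.58, Id2 by 1.72, Eomes, a factor of NK and memory T cells, by 7.13, and Gata3, the factor of type 2 helper cells, by 5.61.

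Among the 8 bleomycin libraries the receptors did not all vary together. After subtraction of the mean of each sex, the Pearson r of log2(CPM + 1) was highest between Ccr6 and Cxcr5 (0.902) and between Cxcr3 and Cxcr5 (0.899), and lowest between Ccr1 and Ccr3 (-0.807); Ccr1 had a negative r with each of the other 7. These r are a description over 8 libraries that share their depth and cell mixture.

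The T cell marker level, the mean log2(CPM + 1) of the list, fell into 3 low libraries (C68 3.96, C69 4.10 and C33 4.26) and 5 others between 5.02 and 5.43, and the same 3 libraries were lowest in the B cell marker level (2.99, 3.80 and 3.58, against 4.48 to 5.10). For 4 of the 8 receptors the 3 low libraries lay below all the other 5, which held for 6.23% of all tested genes. Cxcr5 was at 3.76, 5.52 and 5.41 CPM in C68, C69 and C33, against 9.75 to 16.6 CPM in the other 5. Cxcr3 was at 6.99, 7.30 and 6.85 CPM there, against 9.52 to 13.2 CPM, Ccr6 at 3.18, 3.87 and 4.27 CPM, against 5.55 to 7.89 CPM, and Ccr4 at 3.03, 2.21 and 2.53 CPM, against 3.51 to 6.04 CPM. The other 4 overlapped: Cxcr6 spanned 5.69 to 11.9 CPM in the 3 and 11.2 to 21.9 in the 5, Cxcr4 144 to 164 and 161 to 216, Ccr3 0.313 to 1.29 and 0.546 to 4.09, and Ccr1 152 to 256 and 136 to 225.

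Each receptor was also correlated with the levels of 4 marker lists over the 8 bleomycin libraries, which gave 32 relations, all tested by exact two-sided permutation with Benjamini-Hochberg adjustment. For Pearson's r 6 of the 32 passed an adjusted p of 0.05: Cxcr5, Cxcr3 and Ccr6, each with the B cell and with the T cell level. The share of all tested genes with relations this strong is not given here. The count is therefore a description and does not set these 3 receptors apart from other genes. With the B cell level Cxcr5 had r = 0.969 (permutation p = 0.00062, adjusted 0.00992) and Spearman's rho = 0.905 (permutation p = 0.00456, adjusted 0.0487). Ccr6 had r = 0.906 (permutation p = 0.00198, adjusted 0.0212) and the same rho, and Cxcr3 had r = 0.883 (permutation p = 0.00618, adjusted 0.0369) and rho = 0.714 (permutation p = 0.0576, adjusted 0.205), so the Cxcr3 relation did not pass by rank. Without C33 and C68, the libraries farthest from the median B cell level, r was 0.927, 0.806 and 0.792. The other 5 receptors had adjusted permutation p-values from 0.0618 (Cxcr4) to 0.496 (Ccr1) for Pearson's r with the B cell level. With the T cell level the 3 receptors had adjusted permutation p-values of 0.00873 (Cxcr5), 0.0321 (Cxcr3) and 0.0369 (Ccr6) for Pearson's r. For Spearman's rho the adjusted permutation p-values were 0.0487, 0.168 and 0.183, so only Cxcr5 passed by rank. Since the T cell level formed clusters of 3 and 5, which a pooled r would join, its r is not given. The same 3 libraries were lowest in the B cell level, so its pooled r spans the same 3 and 5 libraries. The T and B cell levels had r = 0.946 with each other over the 8 libraries, so relations with these lists cannot be told apart. With the neutrophil and the monocyte-derived macrophage levels 0 of 16 relations passed, with adjusted permutation p-values of 0.305 to 0.967, and 0 had an unadjusted p below 0.05.

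**Figure D4:**
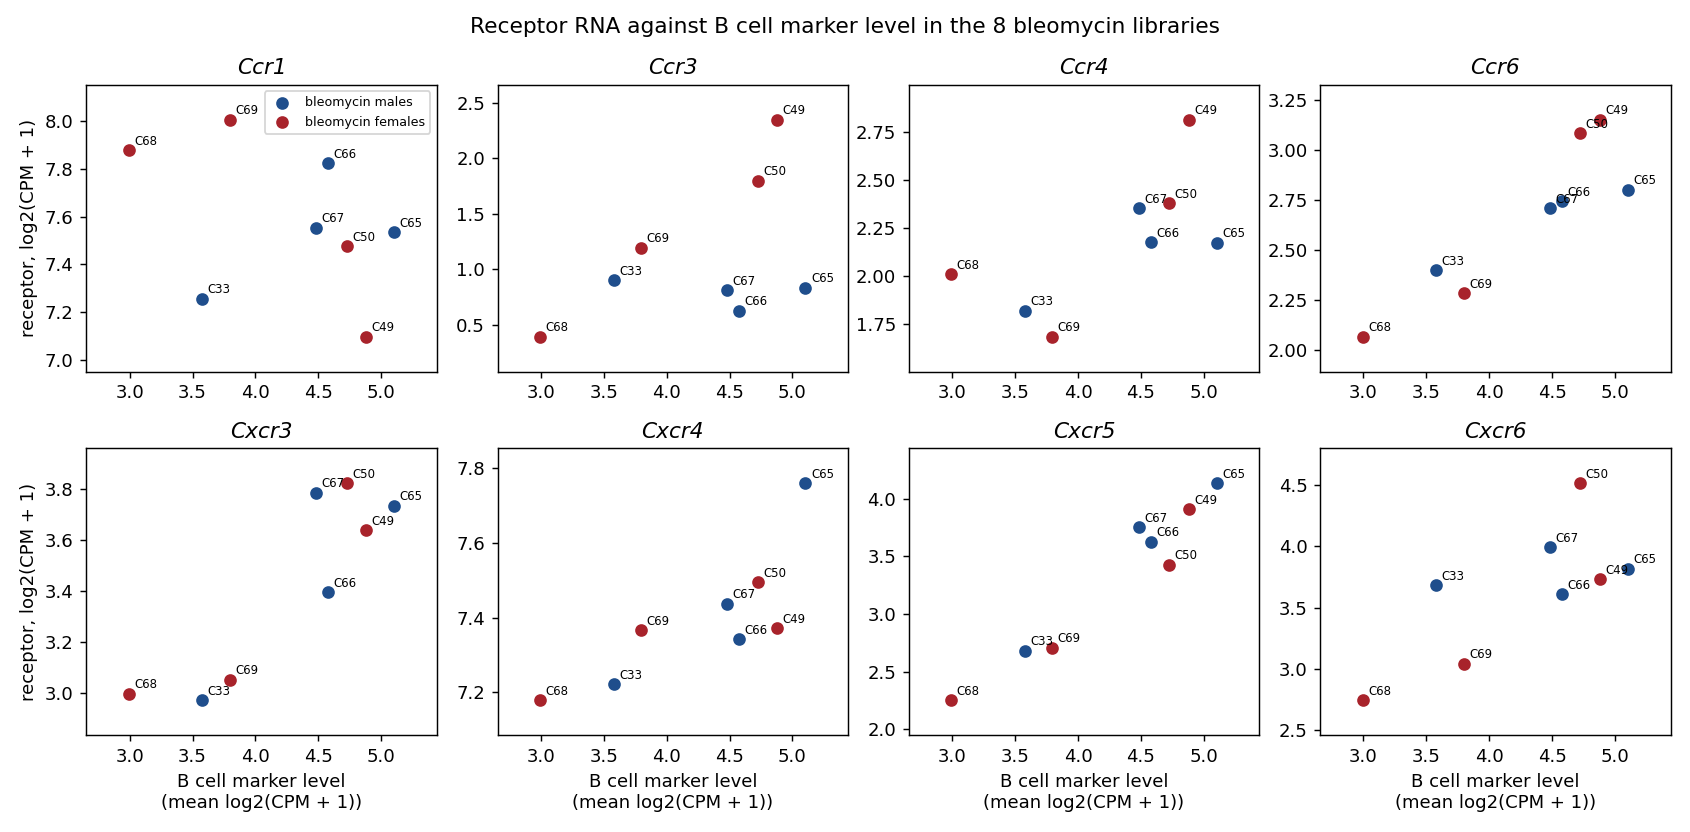
Each panel plots 1 receptor, as log2(CPM + 1), against the B cell marker level, the mean log2(CPM + 1) of the list, in the 8 bleomycin libraries, with library codes. C68, C33 and C69 lie at the left in every panel, at B cell levels of 2.99, 3.58 and 3.80, and are the 3 lowest points for Cxcr5, Cxcr3 and Ccr6.

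The protein-coding genes whose levels most resembled each receptor over the same 8 libraries (Pearson r after subtraction of the mean of each sex, of about 8680 candidates with at least 10 CPM) were Grap, Nkg7 and Ifi209 for Cxcr3 (0.989, 0.986 and 0.985), Gramd3, Bcl2 and Pou2af1 for Cxcr5 (0.995, 0.99 and 0.99), and Nck2, Cdkn1b and Card6 for Ccr6 (0.99, 0.987 and 0.987). For Cxcr6 they were Timeless, Ank and Plekha1 (0.976, 0.957 and 0.956), and for Cxcr4 Epb41, Cnp and Arl2bp (0.945, 0.94 and 0.938). For Ccr4 they were Phf1, Ppm1h and Phf21a (0.99, 0.985 and 0.984), for Ccr3 Akap8, Taz and Ddx42 (0.983, 0.977 and 0.973) and for Ccr1 Ssna1, Rpn1 and Polr2d (0.994, 0.987 and 0.986). Picking the top 3 of about 8680 candidates over 8 libraries gives a high r partly through the selection itself. These r are therefore a description only. Genes alike in this sense did not always share the receptor's rise with bleomycin. Those most like Cxcr3 and Cxcr5 had average log2 fold changes between 5.49 and 10.3, whereas the values were -0.37, -0.37 and -0.12 for Ccr3, -0.35, 0.56 and 0.42 for Ccr4, 0.19, 3.22 and 0.31 for Cxcr6, and 2.23, -0.21 and 3.12 for Ccr6.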

How the data were processed

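RNA of lavage cells was measured in 16 libraries, 4 per group. The tools named in the submitters' processing notes are, without roles, DESeq2 (version not given), featureCounts 1.5.0-p3, HISAT2 2.0.5 and fastp 0.12.2, and 2 genome builds, mm10 and mm9, appear there. The gene coordinates of the deposited tables match GRCm38 (53499 of 54409 identifiers found in GENCODE M21). The deposited counts are raw counts per gene. The authors' deposited FPKM values equal counts divided by gene length and by 1 factor for each library, which is proportional to the size factor of DESeq2. The log2 fold changes and p-values of the authors' deposited comparison tables were used only where named.

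Counts were fitted with edgeR 4.0.16 in R 4.3.3 (quasi-likelihood, TMM, filter on low counts with a minimum count of 10, 1 coefficient per group over all 16 libraries), with Benjamini-Hochberg adjustment over 15257 genes. Alternatives were other scalings, filters, DESeq2 1.42.0, limma voom (limma 3.58.1), the compared groups alone, and left-out libraries. Library totals were 16385784 to 24567609 counts, and precision at low counts is given by exact intervals. The fitting code was tested on simulated data.

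The receptors and the 14 gene lists were chosen with earlier results of these data known. Beside the 8 receptors and all ligands, the text names the 4 genes of each list with the smallest adjusted p in the average of the sexes, those that moved against most of their list where these were 3 or fewer, and the 3 genes most like each receptor. Other genes named were chosen after their values were seen. A few genes that the rule names are not reported here. Levels over libraries were compared on log2(CPM + 1).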

Additional observations from a re-analysis of the deposited data

Results flagged for a closer look

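In the 32 combinations of receptor and group, the highest and lowest of 4 libraries were compared with the rest, and chance alone marks about 1 in 20 such groups. In saline females, C75 stood apart from the other libraries for Ccr4, at 0.13 CPM (3 counts) against 0 in the other 3 libraries. The same library stood apart for Cxcr3, at 0.0869 CPM (2 counts) against 0 in the others. Both rest on at most 3 counts. With the other 3 libraries at 0, any count in C75 would have been marked, so the rate of about 1 in 20 does not apply.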

How the results depend on the processing

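All 8 receptors were called higher with bleomycin in the average of the sexes under every alternative that tested them. Ccr3 did not pass the strict filter (at least 1 CPM in 8 libraries) or the filter in the fits of 1 sex alone, which left 7 called. Within a sex, the receptors other than Cxcr4 were called in every alternative that tested them. For Ccr1 in females this was only just so. Over 16 alternatives (edgeR, DESeq2 or limma voom) its largest adjusted p was 0.0499, and its log2 fold change ran from 0.34 to 0.77. The values for Cxcr4 are given with its results. Without C33, C49 and C50 the Cxcr4 difference in females was 0.37 (adjusted p = 0.127, edgeR), and 1 receptor, Cxcr5, was called between males and females in bleomycin (1.57), where 0 were called otherwise; 670 of 15707 genes were called in that fit, and the remaining males and females differ in lymphocyte marker level. Library totals alone moved the median log2 fold change of all genes in the average from 0.0116 to -0.20, and Cxcr4 stood at 0.30 on that scale. No direction that was called reversed. The 23 alternatives include leaving out each library in turn. Over them the average log2 fold change ran, for example, from 7.41 to 8.78 for Cxcr3 and from 0.39 to 0.75 for Ccr1. No paired analysis was possible because the library codes are not shared between groups. By Pearson's r, the 6 relations that passed also passed on deviations from the mean of each sex and on the log2(FPKM + 0.1) scale. Ccr4 with the T cell level (adjusted permutation p = 0.0165, deviations) and Cxcr4 with the B cell level (adjusted permutation p = 0.0482, FPKM) passed there as well. Relations with the marker levels were not run without C33, C49 and C50, which leaves 5 libraries. Counts of 0 to 6 per group in saline set the limit for the fold changes of Ccr3, Ccr4 and Cxcr3.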
